A study of Danio rerio with 2 samples.

Results

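Cytosolic ribosomal protein (RP) genes were examined across the cells of zebrafish hearts at 48 and 72 hours post-fertilization (hpf). Members were all genes whose symbol begins with rpl or rps and a number, or with the P stalk form rplp, without the rps6k genes, which encode kinases. The rule found 83 of the 32057 gene IDs in the files, under 82 symbols, and left out 11 rps6k genes. Of the members, 44 were named for the large subunit, 4 for its P stalk and 35 for the small subunit. Their symbols came from the deposited gene lists, and 1 of the 83, rps19bp1, encodes a protein that binds RPS19 in human cells and is not itself a subunit of the ribosome.

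Each ribosome holds a small subunit, which reads the mRNA, and a large subunit, which joins the amino acids. Nearly every RP is present once per ribosome, the P stalk proteins excepted, so cells make RPs in balanced amounts, and their mRNAs are among the most abundant in any growing cell. The ribosomes are assembled in the nucleolus by a separate set of assembly factors, and ribosomes of mitochondria use another set of RPs. In blood formation, loss of RPs such as RPS19 in humans is known for its effect on red cell precursors.

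The cells came from hearts dissected from Tg(kdrl:nls-mCherry); Tg(cd41:GFP) animals, 1 library at 48 hpf and 1 at 72 hpf, and both libraries shared these transgenes. The kdrl promoter marks endothelial cells, including the endocardium, and cd41 marks blood stem and progenitor cells and thrombocytes. Live cells with mCherry alone and cells with mCherry and GFP were sorted and combined, so the shares of cell types reflect the gate. No treatment or mutant was compared, and the animals were pooled. With 1 library per age there was no replicate and no test was possible. Age and library cannot be told apart. Intervals of medians cover the sampling of cells within a library, not the range of single cells. Those of gene shares and ratios cover counting error only. No interval covers differences between animals or libraries.

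The 48 hpf library held 2665 cells with 30735426 unique molecular identifiers (UMIs, 1 per captured mRNA molecule) and the 72 hpf library 4125 cells with 33721297 UMIs. Median UMIs per cell were 10411 at 48 hpf, in a range of 2751 to 79992, and 6316 at 72 hpf, in a range of 3293 to 46806. The libraries shared 4 cell barcodes. Clustering without the members and without mitochondrial genes gave 16 clusters, named from marker genes, and 14 groups of a class and an age held at least 50 cells. Only 8 chamber-like cells were found at 48 hpf and no S-phase-like cells at 72 hpf, so chamber-like cells were the reference at 72 hpf and S-phase-like cells at 48 hpf. S-phase-like names a cluster by its markers, not the phase of each cell. Called cell by cell, 525 of its 1022 cells were in G1, 445 in S and 52 in G2M, and 219 chamber-like cells of 72 hpf were called S. The cluster held the chamber marker tmem88a at 1510 CPM, against 1872 CPM in chamber-like cells of 72 hpf and 1154 CPM in G2/M-like cells of 48 hpf. The few cells named chamber-like at 48 hpf thus do not mean that chamber endocardium was absent. All 12 endothelial markers reached at least 1 CPM (UMIs scaled to a total of 1000000) in both libraries, with summed levels of 3523 CPM at 48 hpf and 3592 CPM at 72 hpf, and cdh5 was the highest. Blood-like cells at 72 hpf held 192 CPM of these markers. Globin genes, which cells other than blood should lack, summed to 13841 CPM in blood-like cells at 72 hpf. In the other groups they summed to 11.5 to 120 CPM, highest in G2/M-like cells at 48 hpf. The source of these UMIs was not tested.

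All 83 members had UMIs in both libraries, 82 had at least 200 over both and 80 at least 1000. The 10 members with most UMIs together held 27.4% of all RP UMIs. rplp1 (ENSDARG00000021864), which encodes a P stalk protein that helps recruit translation factors, led with 644855 UMIs, 3.60% of the RP UMIs, and stayed between 3.47% and 3.86% over the 14 groups. rpl39 (ENSDARG00000036316), a protein of the exit tunnel of the large subunit, followed with 606115 UMIs or 3.38%, in a range of 3.18% to 3.53%. The others were rps20, rpl37, rplp0, rps29, rps7, rpl36a, rpl19 and rplp2l, with 543103 down to 394523 UMIs. These are counts of 3′ ends that are not scaled by gene length. At the low end, rps8b (ENSDARG00000057368) was the only member under 100 UMIs, with 19, beside 138968 for its paralog rps8a. rpl26 had 455 UMIs, and a minor gene ID that also bears the symbol rpl37 (ENSDARG00000076360) had 417.

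Relative to the RP sum, the range of each gene over the groups was set beside that of all 9988 genes with at least 200 UMIs. The highest and the lowest value over the 14 groups were within 1.5-fold for 64 of 82 members and 0.811% of all such genes. Among the 48 hpf groups alone 76 of 82 members and 6.02% of genes were within 1.25-fold, and among the 72 hpf groups 58 of 82 and 0.671%. The members make up the denominator, and genes with few UMIs vary more by counting. A range of at least 2-fold was found for 11 of all 83 members, or 10 of these 82, against 95.4% of genes. Of these, rps8b, rpl26 and the minor rpl37 had few UMIs, and the other 8 were rpl7l1 (6.18-fold), rpl22l1 and rps19bp1 (2.51-fold each), rps27l (2.37-fold), rplp2 (2.34-fold), rps18 (2.33-fold), rps16 (2.05-fold) and rpl31 (2.03-fold). rpl7l1, rpl22l1, rps27l and rplp2 have a related member, while rps18, rps16 and rpl31 differed in order between the ages.

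The share of a cell's UMIs that came from RP genes differed between cell groups and between ages. The median was 24.2% at 48 hpf, with cells from 2.89% to 47.1%, and 29.5% at 72 hpf, with cells from 3.89% to 58.7%. At 72 hpf blood-like cells had the highest median at 37.1% (95% interval 36.4 to 38.1, n = 388), followed by chamber-like cells at 31.5% (31.2 to 31.8, n = 1342). Then came aqp8a.1 cells at 28.8% (28.4 to 29.1, n = 668), cxcr4b cells at 28.7% (27.6 to 30.2, n = 73), cfd cells at 28.6% (27.7 to 29.4, n = 137) and valve endocardial-like cells at 28.1% (27.7 to 28.5, n = 751), whose intervals overlapped. These 3 groups with a gene's name are clusters that did not meet the marker rule and are called by their leading gene. G2/M-like cells at 27.25% (26.8 to 27.9, n = 293), valve interstitial-like cells at 26.3% (25.9 to 26.9, n = 356) and lymphatic-like cells at 25.7% (24.7 to 27.0, n = 117) stood lowest, each overlapping with its neighbour.

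The 48 hpf groups lay closer together, but none of them bore the names blood-like or chamber-like, which had the highest medians at 72 hpf. Over the classes with at least 50 cells at both ages, medians ran from 22.7% to 25.4% at 48 hpf and from 25.7% to 28.7% at 72 hpf. cxcr4b cells stood at 25.4% (24.5 to 26.1, n = 122), S-phase-like cells at 24.6% (24.4 to 24.8, n = 1022), valve endocardial-like cells at 24.3% (24.0 to 24.6, n = 802), lymphatic-like cells at 24.2% (23.7 to 25.2, n = 206) and G2/M-like cells at 22.7% (22.4 to 23.0, n = 484). Neighbours in this order overlapped except for the G2/M-like cells. Every one of the 5 medians at 48 hpf was below every one of the 9 at 72 hpf, although the intervals of cxcr4b, S-phase-like and lymphatic-like cells at 48 hpf overlapped with that of lymphatic-like cells at 72 hpf, and that of cxcr4b cells also with valve interstitial-like cells.

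**Figure D1:**
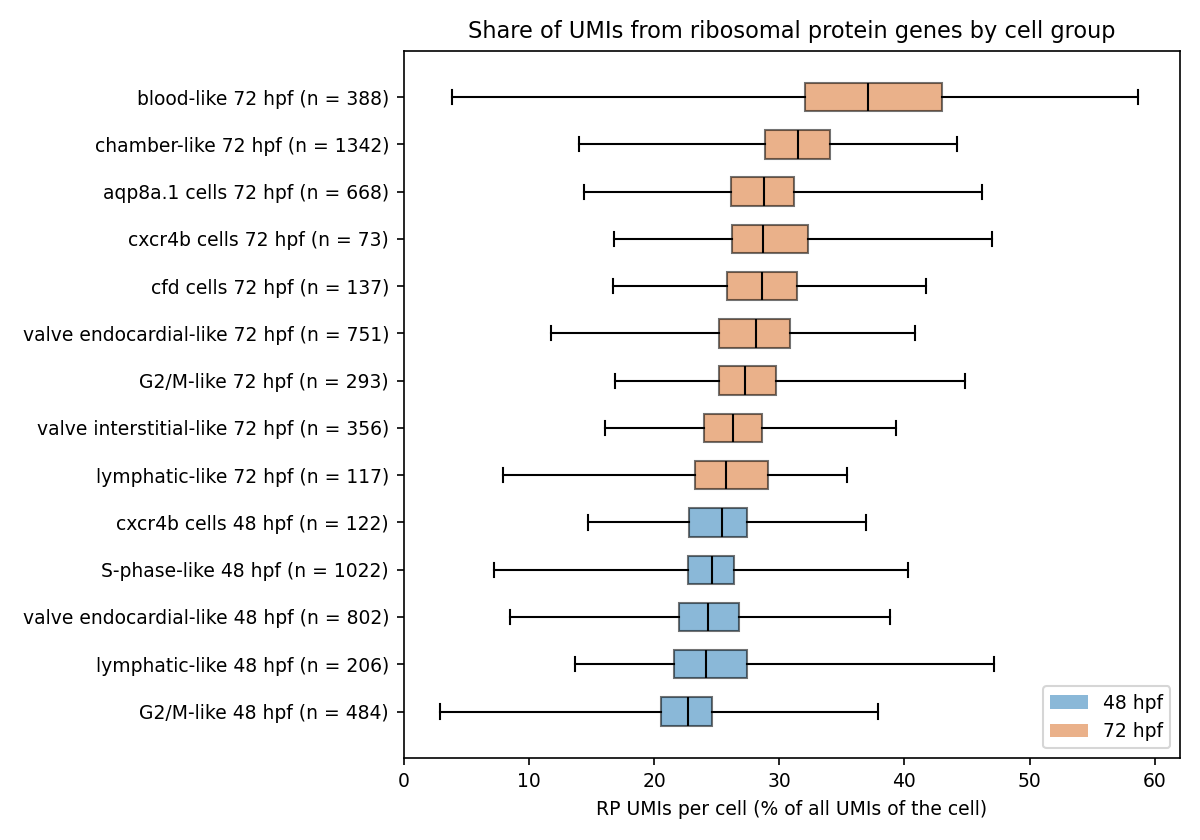
RP UMIs as a percent of all UMIs of a cell, by group, with the groups on the vertical axis. Boxes span the quartiles with a line at the median, and whiskers reach the lowest and highest cell. The blood-like cells at 72 hpf stand at 37.1%, chamber-like cells at 31.5%, and the 48 hpf groups between 22.7% and 25.4%.

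Values that differ between the libraries stood beside these shares. The median share of mitochondrial UMIs was 0.786% to 0.972% in the 48 hpf groups and 0.345% to 0.566% in the 72 hpf groups, and the 48 hpf cells had more UMIs. Within the blood-like cells the median RP share was 27.3% in the 25% of cells with fewest UMIs and 37.4% in the 25% with most. The same values were 30.4% and 32.3% in chamber-like cells and 25.7% and 29.6% in valve endocardial-like cells at 72 hpf. The blood-like contrast also mixed lineages of unlike depth, described below. Thrombocyte-like cells had a median of 5654 UMIs and 24.0% RP, and mpx blood cells 20683 UMIs and 45.3%. Between 5000 and 15000 UMIs mpx and sh2d1ab blood cells stood at 45.9% and 42.5%, against 45.3% and 42.0% at any depth. cyp26b1 blood cells stood at 24.4% there, against 34.6%, and erythroid-like cells at 26.7%, against 38.1%. The part of lineage in the contrast was not tested. The part of depth and of mitochondrial RNA in the difference between ages was not tested.

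Blood-like cells at 72 hpf exceeded chamber-like cells by 5.62 percentage points of RP share (4.605 to 6.90), and 77.1% of the blood-like cells lay above the chamber-like median. They made up 9.41% of the 72 hpf library and were deeper, with a median of 18206 UMIs against 5431. Restricted to cells with 5000 to 15000 UMIs the difference was 2.73 points, and without the thrombocyte-like cells 7.0 points. That range kept 38 of the 71 thrombocyte-like cells but 6 of the 76 erythroid-like cells, so it changed the mix of lineages as well as the depth. At 48 hpf 15 blood-like cells were found, too few for a comparison, with a median of 21.9%.

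The blood lineages spanned most of the range of the 72 hpf library. Their medians cover cells of both ages, of which 8 outside the neutrophil-like cells came from 48 hpf. The cluster led by mpx, a myeloperoxidase gene of neutrophils, had the highest median at 45.3% (44.2 to 45.9, n = 83), and it held 1 lineage marker and was left unnamed. The sh2d1ab blood cells, which also had runx3 and ccr9a among their leading genes, stood at 42.0% (39.9 to 43.4, n = 49). Erythroid-like cells, led by globins and hemgn, stood at 38.1% (37.0 to 39.4, n = 77). zgc:194627, s1pr4 and cyp26b1 blood cells had medians of 35.6% (n = 27), 35.0% (n = 37) and 34.6% (n = 25), and the last also held endocardial genes such as tmem88a. Macrophage-like cells at 26.7% (24.4 to 31.1, n = 27), led by mfap4 and marco, and thrombocyte-like cells at 24.0% (20.4 to 27.3, n = 71), led by itga2b and f5, were lower. Of the 27 macrophage-like cells 4 were of 48 hpf, and the 23 of 72 hpf had a median of 27.9%. The 7 neutrophil-like cells, all of 48 hpf, had a median of 21.9%.

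Thrombocyte-like cells were below the other blood-like cells of 72 hpf, by a difference of −14.5 points (−19.1 to −10.6), and 4.23% of them lay above the others' median. They varied widely among themselves, from 6.75% to 45.9%, and were shallow, at a median of 5654 UMIs. In the range of 5000 to 15000 UMIs their median was 27.14% (38 cells), where mpx blood cells had 45.9% (10 cells), sh2d1ab blood cells 42.5% (33 cells) and macrophage-like cells 26.7% (15 cells). At that depth 8 cyp26b1 blood cells had a median of 24.4% (14.5 to 34.7). Thrombocyte-like cells thus stood below the mpx and sh2d1ab blood cells but not below the macrophage-like and cyp26b1 blood cells. The 6 erythroid-like cells at that depth had a median of 26.7% (7.26 to 46.1). At any depth, no erythroid-like cell lay between 10.4% and 32.9%. Their median thus falls between cells dominated by globin and the others, and gives no order against thrombocyte-like cells.

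Erythroid-like cells split by their globin content. In 6 cells globin made up 68.9% to 83.7% of the UMIs and RP 3.89% to 10.4%, with a median of 7.41%. With globin UMIs taken out of the denominator, the RP share of these 6 was 23.8% to 44.4%, with a median of 38.2%. The other 71 had 0.0285% to 17.6% globin and an RP share of 32.9% to 54.8%, with a median of 38.6%, or 38.8% without globin. Over the 76 erythroid-like cells of 72 hpf the median was 1.70 points above that of the other blood-like cells, with an interval of −1.05 to 4.07 that includes no difference.

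**Figure D2:**
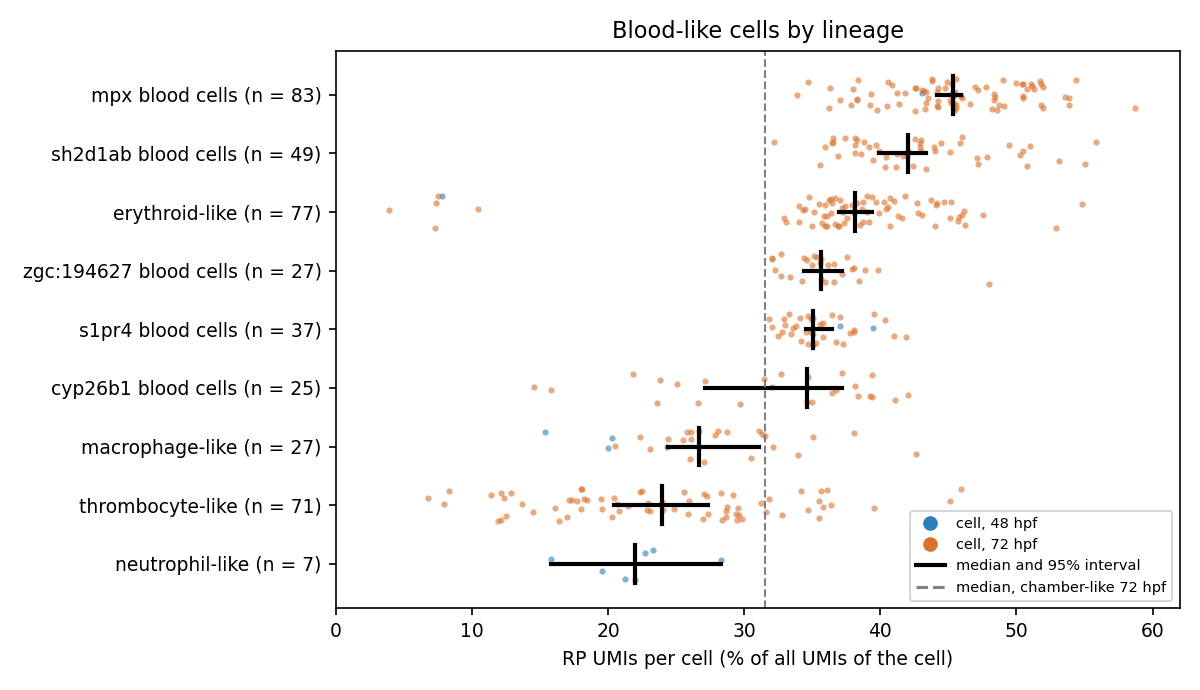
RP UMIs as a percent of all UMIs for each blood-like cell (points), by lineage on the vertical axis, with the median and its 95% interval. mpx blood cells lie around 45.3% and thrombocyte-like cells around 24.0%, and the erythroid-like cells under 10.4% are the 6 in which globin dominates.

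Within the RP sum, 3 of 80 members departed 2-fold or more in blood-like against chamber-like cells at 72 hpf, 2 upwards and 1 downwards. Over all 5574 genes with as many UMIs, taken relative to the same RP sum, 21.2% were 2-fold higher and 31.8% 2-fold lower, a larger share than that of the members in both directions. The gene with the largest departure was rpl7l1 (ENSDARG00000042864), a paralog of rpl7 whose yeast relative Rlp7 takes part in assembling the large subunit. It took 0.0755% of RP UMIs in blood-like and 0.0237% in chamber-like cells, a log2 ratio of 1.67 (1.54 to 1.80). In CPM these were 287 and 74.9. rps19bp1 (ENSDARG00000091124) stood at 0.0284% against 0.0113%, a log2 ratio of 1.33 (1.13 to 1.52). rplp2 (ENSDARG00000101406), a P stalk gene, went the other way, at 0.390% against 0.821%, a log2 ratio of −1.07 (−1.11 to −1.04). Relative to all UMIs its log2 ratio was −0.80, under 2-fold.

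Smaller departures of blood were seen for rps27l (log2 0.63) and rps18 (0.58) on the high side and rps2 (−0.29), rps27.1 (−0.26) and rps26 (−0.25) on the low side. Between 5000 and 15000 UMIs, in 112 blood-like and 801 chamber-like cells, the log2 ratios were 0.58 for rpl7l1, 0.39 for rps19bp1 (−0.05 to 0.82) and −0.50 for rplp2, and none of the 80 passed 2-fold. That range held 6 erythroid-like and 10 mpx blood cells, so its lineages differ from those of the whole class.

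These members also differed between the blood lineages. rpl7l1 took 0.107% of RP UMIs in erythroid-like, 0.0896% in s1pr4, 0.0682% in mpx, 0.0627% in zgc:194627, 0.0509% in cyp26b1 and 0.0494% in sh2d1ab blood cells. In thrombocyte-like and macrophage-like cells it took 0.0295% and 0.0222%, close to the chamber-like level. rplp2 ran opposite, lowest in s1pr4 blood cells at 0.316% and erythroid-like cells at 0.339%, and higher in thrombocyte-like cells at 0.609% and macrophage-like cells at 0.820%. Both genes thus placed macrophage-like cells beside the endocardial groups.

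Against the other blood-like cells, 0 of 80 members departed 2-fold in erythroid-like cells, where 2.93% of 3069 genes were higher and 13.5% lower relative to the RP sum. The leading values were rpl7l1 at log2 0.79 (0.67 to 0.92), rps19bp1 at 0.62 and rplp2 at −0.28. In thrombocyte-like cells 1 of 80 departed, rpl7l1 at log2 −1.40 (−1.88 to −0.95) from 41 UMIs, where 26.8% of 3069 genes were higher and 15% lower. Other members there were rpl5b at −0.69, rpl4 at −0.52 and rpl23a at −0.45, and rplp2 at 0.69, rpl22l1 at 0.39 and rpl10 at 0.33. rpl4 and rpl23a encode proteins at and around the exit tunnel, and rpl5a and rpl5b the protein that binds the small ribosomal RNA of the large subunit. Relative to all UMIs, the log2 ratios of rpl7l1, rpl5b and rpl4 were −1.94, −1.23 and −1.06.

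Cycling cells in G2/M had lower RP shares than the reference cells at both ages. The difference of G2/M-like cells was −4.24 points from chamber-like cells at 72 hpf (−4.96 to −3.33) and −1.92 points from S-phase-like cells at 48 hpf (−2.44 to −1.40). Their median depth was 9798 UMIs at 72 hpf and 15346 at 48 hpf, above both references. The members shared the lower level evenly. At 72 hpf 0 of 80 departed 2-fold from the RP sum, with rps27l at log2 0.27 (0.11 to 0.42), rps19bp1 at 0.27 (−0.05 to 0.59) and rplp2 at −0.18. Of 4580 genes, 10.4% were higher and 1.38% lower on that scale. At 48 hpf 0 of 80 departed either, where 5.95% of 5685 genes were higher and 0.528% lower. rpl6 led at 0.19 and rpl7l1 was lowest at −0.29.

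Phases called per cell from cycle genes were compared within classes. In chamber-like cells at 72 hpf the median RP share was 31.5% in the 1101 cells called G1, 32.0% in the 219 called S and 28.6% (26.1 to 31.3) in the 22 called G2M. With cells thinned to 2000 UMIs before the call, these were 31.5%, 31.6% and 30.9% (29.7 to 33.1), and the interval of G2M overlapped with the others. In S-phase-like cells at 48 hpf the medians were 24.5% in the 525 called G1, 24.8% in the 445 called S and 23.5% in the 52 called G2M. After thinning they were 24.6%, 24.7% and 23.6% (22.7 to 24.8). In the valve endocardial-like class cells called S stood above cells called G1. The medians were 26.2% against 24.2% at 48 hpf and 29.9% against 27.9% at 72 hpf. After thinning they were 25.6% against 24.2% and 29.5% against 28.0%. The cells called S were also deeper, at medians of 12690 against 8629 UMIs at 48 hpf and 8724 against 6122 at 72 hpf. Thinning changed the calls but not the depth behind the shares. In this class at 48 hpf the 25% of cells with fewest UMIs had a median of 23.3% and the 25% with most 25.3%. At 72 hpf these were 25.7% and 29.6%. The part of depth in the difference between S and G1 was not tested. In blood-like cells S stood at 39.2% and G1 at 35.1% (31.1 to 39.4), but after thinning the values were 38.1% (37.1 to 39.4) and 38.3%. Blood-like cells called G2M stood at 35.4%, and after thinning at 35.1% (34.0 to 36.6), below S.

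Valve cells at 72 hpf had lower RP shares than the chamber. Valve endocardial-like cells differed from chamber-like cells by −3.36 points (−4.06 to −2.71), and valve interstitial-like from valve endocardial-like cells by −1.85 points (−2.52 to −0.78). The last difference was −0.34 with each library clustered on its own and 0.30 with cells classed one by one. At 48 hpf valve endocardial-like and S-phase-like cells did not separate, at −0.27 points (−0.77 to 0.20). The 12 cardiomyocyte markers summed to 555 CPM in valve endocardial-like and 423 CPM in valve interstitial-like cells, against 163 CPM in chamber-like cells of 72 hpf, with 6, 8 and 9 markers at 1 CPM or more. At 48 hpf they summed to 348 CPM in valve endocardial-like and 18.8 CPM in S-phase-like cells. tnnt2a made up 533 of the 555 CPM, while myl7 was lower in valve endocardial-like than in chamber-like cells, at 4.02 against 45.8 CPM. Their part in the RP share was not tested.

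No member departed 2-fold in these comparisons. For valve endocardial-like against chamber-like cells at 72 hpf, 10.2% of 5193 genes were higher and 5.47% lower. rps27l (ENSDARG00000100513), a paralog of rps27 that p53 induces in human cells, stood highest at log2 0.62 (0.51 to 0.74). rpl22l1 at −0.39, rpl31 at −0.28 and rplp2 at −0.26 were the lowest. Valve interstitial-like against valve endocardial-like cells gave 0 of 80, where 8.04% of 3991 genes were higher and 7.54% lower. rpl22l1 (ENSDARG00000010244), the paralog of rpl22, was 0.197% of RP UMIs in the interstitial-like and 0.122% in the endocardial-like cells, a log2 ratio of 0.69 (0.59 to 0.79). rpl22 itself was at −0.14 and rps26 at 0.20. At 48 hpf, valve endocardial-like against S-phase-like cells gave 0 of 80, where 4.08% of 5661 genes were higher and 5% lower, and the extremes were rps27l at 0.17 and rpl22l1 at −0.19.

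Lymphatic-like cells, marked by lyve1a and lyve1b, had the lowest RP share of the 72 hpf groups, a difference of −5.77 points from chamber-like cells (−7.04 to −4.23), and 12.0% of them lay above the chamber-like median. Their depth was close to that of the chamber-like cells, at a median of 5448 UMIs against 5431. At 48 hpf they differed from S-phase-like cells by −0.42 points (−1.12 to 0.72), or by 0.21 points in pooled UMIs. Against chamber-like cells 0 of 80 members departed, where 13.9% of 3804 genes were higher and 9.04% lower. rps27l stood at log2 0.76 (0.51 to 1.01), rps27.2 at 0.49 and rpl7l1, with 22 UMIs, at −0.96 (−1.64 to −0.35). Relative to all UMIs rpl7l1 was past 2-fold, at 31.9 against 74.9 CPM. Against S-phase-like cells at 48 hpf 0 of 80 departed, where 5.26% of 4738 genes were higher and 7.01% lower. rpl22l1 led at log2 0.48 (0.40 to 0.56) and rpl7l1 was lowest at −0.55.

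Between the ages, 4 classes had at least 50 cells in each library. The RP share was higher at 72 hpf by 4.56 points in G2/M-like cells (3.77 to 5.49), 3.79 in valve endocardial-like cells (3.08 to 4.44) and 3.31 in cxcr4b cells (1.51 to 5.79). In lymphatic-like cells the difference was 1.53 points (−0.42 to 3.27). Except for the cxcr4b cells, different clusters held most of a class at the 2 ages. The cxcr4b cells shared a cluster but also differed in markers between the ages. At 48 and 72 hpf they held alcama at 355 and 4.90 CPM, tnnt2a at 122 and 0 CPM and kdrl at 300 and 1189 CPM. Valve endocardial-like cells were 796 of cluster 2 at 48 hpf and 749 of cluster 3 at 72 hpf. Lymphatic-like cells were 178 of cluster 10 and 28 of cluster 11 at 48 hpf, with medians of 23.7% and 32.0%, and 116 of cluster 11 at 72 hpf, with 25.7%. Within cluster 11 the difference was thus −6.25 points.

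The composition of the RP pool differed between the ages, with a set of members on each side. As a share of RP UMIs, 24 of 82 members with at least 200 UMIs were higher in each of the 5 groups at 48 hpf than in any of the 9 at 72 hpf, and 13 were lower. Over all 9988 such genes these shares were 4.18% and 1.12%, against 24 and 13 of 82 here. Genes with few UMIs vary more by counting and so separate less easily. The members are shares of their own sum, so a rise in some goes with a fall in others. In CPM 2 of 80 members were higher in all 48 hpf groups and 29 in all 72 hpf groups, where 2.92% and 2.43% of 4079 genes were.

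rps16 (ENSDARG00000045487), of the small subunit, held 0.629% to 0.667% of RP UMIs in the 48 hpf groups and 0.326% to 0.440% at 72 hpf. rpl31 (ENSDARG00000053365), a protein near the exit tunnel, held 0.845% to 0.906% and 0.446% to 0.579%. In CPM these were the 2 members higher at 48 hpf, rps16 at 1517 to 1656 against 863 to 1283 and rpl31 at 1950 to 2259 against 1265 to 1878. rps18 (ENSDARG00000100392) ran from 0.141% to 0.173% and from 0.0744% to 0.111%, rpl10 (ENSDARG00000025581), which joins the large subunit late in its maturation, from 1.55% to 1.72% and from 1.02% to 1.24%, and rpl13a (ENSDARG00000044093) from 0.900% to 0.959% and from 0.621% to 0.667%. None of these ranges overlapped between the ages.

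On the other side, rps26l (ENSDARG00000030408) held 1.31% to 1.37% at 48 hpf and 1.74% to 2.02% at 72 hpf. rplp2l (ENSDARG00000011201) held 1.94% to 2.09% and 2.25% to 2.67%, rps7 2.03% to 2.105% and 2.24% to 2.57%, and rps21 1.81% to 1.88% and 2.03% to 2.28%. rps7 and rps21 encode small subunit proteins, and rps26l and rplp2l are paralogs of rps26 and rplp2.

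Class by class, log2 ratios of 72 over 48 hpf for rps16 were −0.97 in G2/M-like, −0.88 in cxcr4b, −0.60 in lymphatic-like and −0.85 in valve endocardial-like cells. For rpl31 they were −0.78, −0.83, −0.65 and −0.92, for rps18 −0.95, −0.57, −0.84 and −0.79, and for rps26l 0.56, 0.35, 0.38 and 0.47 in the same order. The classes agreed in direction for these genes, but they share the same 2 libraries. Past 2-fold was only rpl7l1 in lymphatic-like cells, at 0.0122% against 0.0336%, a log2 ratio of −1.46 (−2.17 to −0.82) from 22 and 196 UMIs.

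Beside these counts, the shares of all genes 2-fold higher and lower at 72 hpf relative to the RP sum were 3.14% and 10.5% of 4458 in G2/M-like cells, 4.46% and 16.3% of 1346 in cxcr4b cells, 7.17% and 14.7% of 1702 in lymphatic-like cells and 5.23% and 7.12% of 5014 in valve endocardial-like cells. Median CPM ratios of 72 over 48 hpf were 1.19, 1.12, 1.04 and 1.13 over the members with a UMI and 1.08, 1.12, 1.03 and 1.11 over all genes with one. Over all genes at 50 CPM or more at either age they were 0.97, 1.08, 0.98 and 0.96 in the same order, each below that of the members.

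**Figure D3:**
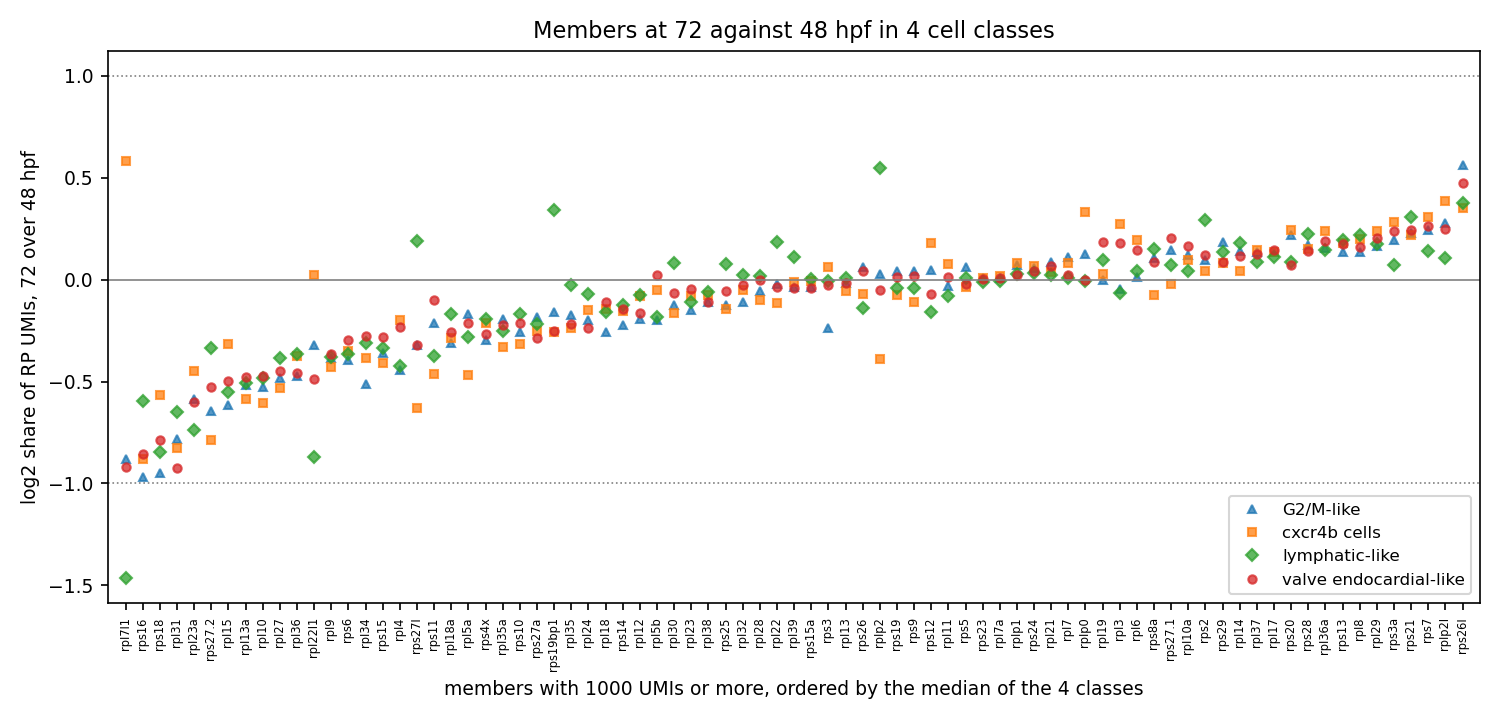
Log2 ratio of each member's share of RP UMIs, 72 over 48 hpf, on the vertical axis, for 79 of the 80 members with at least 1000 UMIs, ordered by the median of the 4 classes (1 symbol per class, dotted lines at 2-fold). rps16, rps18 and rpl31 lie low in all 4 classes and rps26l high, while rpl7l1 in lymphatic-like cells is the single point past 2-fold, at −1.46.

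Across the 14 groups, members with like patterns were found by Pearson correlation of the log2 share of RP UMIs, given as a description since the groups share 2 libraries. rpl31 was most like rps16 (r = 0.99), rpl9 (0.98) and rpl13a (0.97). rps26l was most like rpl8 (0.91), rps7 and rps21 (0.90 each). For rplp2 the highest was rpl22 (0.84), and for rpl7l1 rps12 and rpl5b (0.73 each).

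The balance within paralog pairs differed between cell types and between ages. Reads of near-identical copies may have been split or dropped by the counting, whose handling of them is not given in the sources used here, so the shares below hold between groups rather than as absolute ratios. rplp2 made up 14.1% (13.8 to 14.3) of the UMIs of rplp2 and rplp2l in blood-like cells at 72 hpf, 16.6% in cxcr4b cells of that age, 26.3% in chamber-like and 28.9% (27.7 to 30.1) in lymphatic-like cells. The 5 groups at 48 hpf lay between 23.0% and 26.8%. Among the lineages it was 11.8% in s1pr4 blood cells, 12.8% in erythroid-like, 13.2% in mpx, 18.4% in thrombocyte-like and 26.3% in macrophage-like cells.

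rps26 (ENSDARG00000037071) made up 42.4% to 45.0% of rps26 and rps26l in the 48 hpf groups and 32.8% to 39.9% at 72 hpf, without overlap, and the 72 hpf high was that of valve interstitial-like cells. rps27.2 (ENSDARG00000055475) ran from 8.41% of rps27.2 and rps27.1 in G2/M-like cells at 72 hpf to 16.3% in lymphatic-like cells at 48 hpf, and the ages again did not overlap in their values, although the intervals of lymphatic-like cells of 72 hpf at 12.8% (11.7 to 14.0) and G2/M-like cells of 48 hpf at 13.7% (13.3 to 14.1) did.

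rpl22l1 was 25.9% (24.8 to 27.0) of rpl22l1 and rpl22 in lymphatic-like cells at 48 hpf but 14.4% (12.8 to 16.1) at 72 hpf. At 72 hpf it was 22.6% in blood-like, 21.6% in valve interstitial-like, 16.3% in chamber-like, 13.4% in valve endocardial-like and 12.3% in cfd cells, and 28.7% in thrombocyte-like cells. In the mouse, RPL22 is known to lower Rpl22l1. rpl5b (ENSDARG00000015862) ran from 28.4% of rpl5b and rpl5a in G2/M-like cells to 41.4% (40.6 to 42.2) in blood-like cells of 72 hpf, and reached 44.9% in s1pr4 blood cells. rpl7l1 ran from 0.80% of rpl7l1 and rpl7 (0.50 to 1.202) in lymphatic-like to 4.22% in blood-like cells of 72 hpf, and 5.84% in erythroid-like cells.

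**Figure D4:**
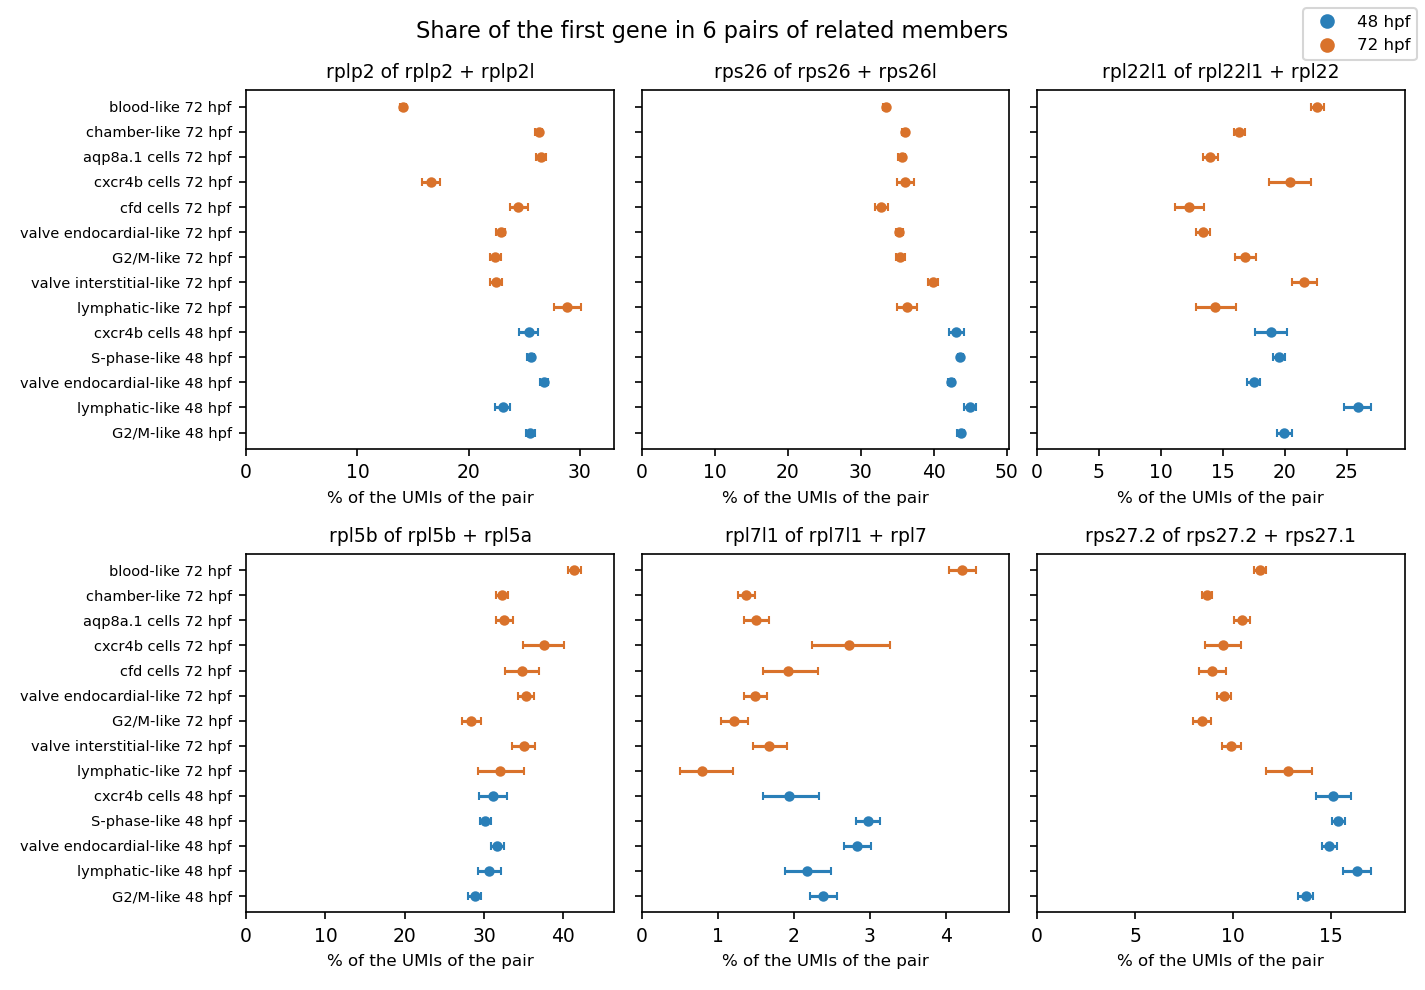
Share of the first gene in the summed UMIs of 6 pairs of related members, in percent on each horizontal axis from 0, for the 14 groups (points with exact 95% intervals, colour by age). rplp2 is low in blood-like cells at 14.1% and cxcr4b cells of 72 hpf at 16.6%, and rps26 and rps27.2 separate the ages.

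Genes that work with the ribosome were described from 3 other lists, of 52 translation factors, 66 ribosome assembly factors and 74 mitochondrial RPs. The assembly list also held genes of ribosomal RNA transcription, such as polr1d and ubtf, counted here as assembly factors. The genes of all 3 lists took part in the clustering, so their levels describe the groups. Counts cover every listed gene with a UMI, and the fold is on log2 of CPM with 1 added. In blood-like against chamber-like cells at 72 hpf all 66 assembly factors were higher, 58 of them 2-fold, at a median ratio of 3.47, and all 74 mitochondrial RPs were 2-fold higher, at a median of 3.42. Translation factors were higher in 46 of 52, 16 of them 2-fold, at a median of 1.61. Members were higher in 79 of 83, 3 of them 2-fold, at a median of 1.22. Over all 20536 genes 9814 were higher, 15.5% were 2-fold higher and 18% lower, at a median ratio of 0.94.

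Named assembly factors in blood-like and chamber-like cells were imp4, part of the small subunit processome, at 95.04 and 8.98 CPM, polr1d, a subunit of RNA polymerases I and III, at 241 and 34.7 CPM, and bop1, an assembly factor of the large subunit, at 68.8 and 10.3 CPM. ubtf, which activates transcription of ribosomal RNA genes, was nearly level at 161 and 152 CPM. Of the translation factor list, eif6, which keeps the large subunit from joining too early, stood at 224 and 57.3 CPM, and tpt1 at 1015 and 1241 CPM. The summed level of the assembly factors was 13514 against 4195 CPM, and of the mitochondrial RPs 6452 against 1776 CPM. That of the members was 380805 against 315855 CPM. The lineages differed, and assembly factors summed to 3290 CPM in macrophage-like and 3743 CPM in thrombocyte-like cells, below the chamber-like sum. In the other blood lineages of 72 hpf they summed to 9392 to 17616 CPM.

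Thrombocyte-like cells were lower than the other blood-like cells in 64 of 66 assembly factors, at a median ratio of 0.25, with npm1a, the nucleolar nucleophosmin, at 266 against 1817 CPM. Members were lower in 82 of 83, at a median of 0.67, and 72 of 74 mitochondrial RPs were lower, at a median of 0.48. Of all 17918 genes 10739 were lower, at a median of 0.87. Over 2650 genes at 50 CPM or more in either group the median was 1.09. In lymphatic-like against chamber-like cells at 72 hpf 62 of 66 assembly factors were lower, 36 of them 2-fold, at a median of 0.47, with rrs1 at 14.5 against 79.5 CPM, npm1a at 91.4 against 397 CPM and nop58 at 50.8 against 185 CPM. Members there were lower in 77 of 83 at a median of 0.84. Of 18932 genes 10569 were lower, at a median of 0.89, and 15.4% were 2-fold higher and 10.9% lower by as much. Over 2513 genes at 50 CPM or more in either group the median was 1.07. In G2/M-like cells of 72 hpf 61 of 66 assembly factors were below the chamber-like level, at a median of 0.63. Of all 19572 genes 9683 were below it, at a median of 1.00, or 1.03 over 2417 genes at 50 CPM or more.

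**Figure D5:**
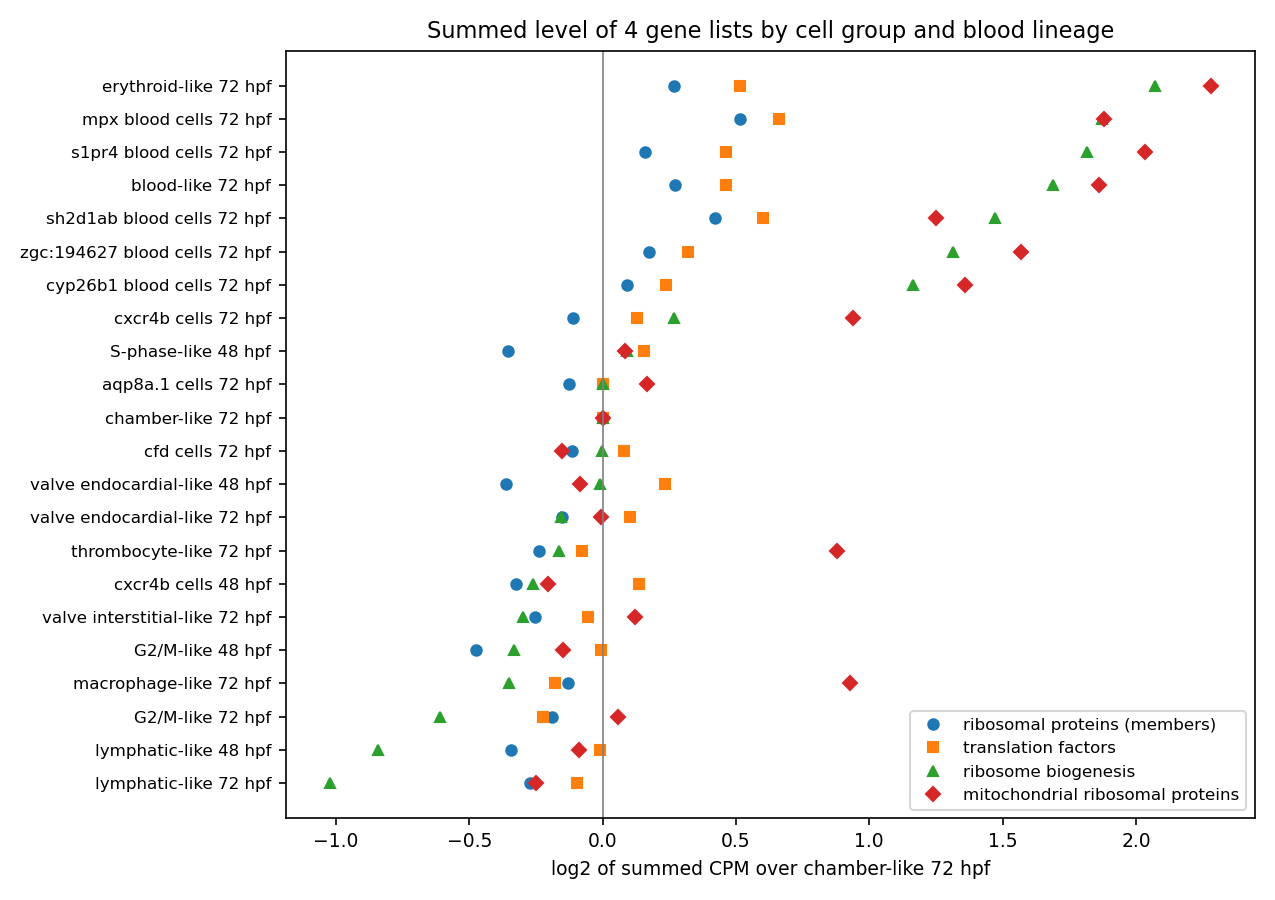
Log2 of the summed CPM of 4 gene lists over that of chamber-like cells at 72 hpf (horizontal axis), by cell group and blood lineage, 1 symbol per list. Assembly factors and mitochondrial ribosomal proteins lie far to the right in erythroid-like cells, and assembly factors lie far to the left in lymphatic-like cells. Members run from 227476 CPM in G2/M-like cells of 48 hpf to 451037 CPM in mpx blood cells. Translation factors run from 31146 to 57622 CPM.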

How the data were processed

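Raw UMI counts per gene and cell were deposited by the authors for 2 libraries of droplet-based 3′ single-cell RNA-seq, 1 lane per age. The submitters' processing notes name STARsolo, Scanpy and the build danRer11. The annotation release, cell calling and handling of multi-mapped reads are not given in the sources used here. Depth was 2751 to 79992 UMIs per cell at 48 hpf and 3293 to 46806 at 72 hpf. Floors and the intervals of shares and ratios cover counting error only, and intervals of medians the sampling of cells within a library. The gene and barcode lists, also deposited by the authors, hold labels. All per-sample columns were mapped.

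All barcodes were kept and no doublet caller was run. Counts were scaled to 10000 without RP and mitochondrial genes, and cells clustered with scanpy 1.11.5 (2000 variable genes, 30 principal components, 15 neighbours, Leiden resolution 0.6, seed 0) and leidenalg 0.10.2, under Python 3.11.15 with numpy 2.4.6, scipy 1.17.1 and pandas 2.3.3. A cluster was named for the class with most markers, at least 3, among its 50 leading genes with a log2 ratio of at least 1, unless its top 10 held more markers of another class. The share of RP UMIs is a gene's UMIs over the summed RP UMIs of the group. Members with 200 UMIs in both groups together were compared, and a fold of 2 was the limit. Medians carry order-statistic 95% intervals, shares exact binomial ones and ratios exact conditional ones. A difference of medians runs from the first lower limit minus the second upper limit to the first upper limit minus the second lower limit. It is thus not itself a 95% interval. The intervals of medians and ratios were tested on simulated data. The simulated counts were pooled totals without variation between cells, so that test does not cover UMIs pooled over uneven cells. With 1 library per group no test was run. Levels in CPM were compared on log2 with 1 added. Phases were called with scanpy.

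Named genes were the 10 members with most UMIs, up to 4 members in each direction per comparison whose interval excluded 0, paralog pairs, members under 100 UMIs and list genes at their 3 largest ratios in each direction, and any others were chosen after their values were seen. Members, lists, markers and naming limits were chosen with earlier results of these data known. Chamber-like cells had been planned as the 48 hpf reference, but too few were found, and S-phase-like cells took their place. Alternatives are given in the closing section, and 4 of them were added after seeing the data. All 83 member IDs were found in the symbol table used, 12 with the same spelling, and the minor rpl37 ID bears another gene's name there. Some results on genes that the symbol rule did not reach are not reported here.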

Additional observations from a re-analysis of the deposited data

Results flagged for a closer look

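rpl7l1 differed in direction between classes. Its share of RP UMIs was higher at 72 than at 48 hpf in cxcr4b cells, by 0.58 on the log2 scale (0.19 to 0.98, from 111 and 112 UMIs), and lower in G2/M-like cells at −0.88, lymphatic-like cells at −1.46 and valve endocardial-like cells at −0.92. rplp2 was higher at 72 hpf in lymphatic-like cells, by 0.55 (0.46 to 0.63), and lower in cxcr4b cells at −0.39. Both were noted because the 1 library of each age moved the classes opposite ways, and the difference between classes was not tested. The cxcr4b cells also differed between the ages in markers such as alcama.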

How the results depend on the processing

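Taking globin or mitochondrial UMIs out of the denominator kept each of the 11 differences it was tried on within its interval. The difference of blood-like and chamber-like cells was 2.73 points within 5000 to 15000 UMIs, 4.11 without the 5% of cells with most UMIs, 2.35 with cells classed one by one by their markers and 7.0 without thrombocyte-like cells, which was tried after seeing the data. Leaving out the cyp26b1 blood cells moved it within its interval. Classing cells one by one gave −3.20 for G2/M-like and −3.48 for lymphatic-like against chamber-like cells, −2.60 for G2/M-like against S-phase-like cells and a reversed 0.295 for valve interstitial-like against valve endocardial-like cells. The last difference was −0.591 with RP genes kept in the clustering, −0.475 at resolution 1.0 and −0.339 with each library clustered on its own. For valve endocardial-like against chamber-like cells these 3 settings gave −4.61, −4.37 and −4.85, and resolution 0.3 gave −2.50. For valve endocardial-like cells at 72 against 48 hpf they gave 2.24, 2.47 and 1.99, and resolution 0.3 gave 1.88. At 48 hpf, valve endocardial-like against S-phase-like cells reversed to 1.90 at resolution 0.3 and 0.589 with each library on its own, and lymphatic-like cells to 0.772 at resolution 0.3 and 0.214 in pooled UMIs. The lymphatic-like difference between ages reversed to −6.25 within the minor 48 hpf cluster, a setting added after seeing the data. The cause of these moves was not tested.

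Members past 2-fold in blood-like against chamber-like cells went from 3 to 0 within 5000 to 15000 UMIs. In CPM 1 passed in lymphatic-like against chamber-like cells and 3 in thrombocyte-like cells. As a share of RP UMIs the count in thrombocyte-like cells went from 1 to 0 within 5000 to 15000 UMIs, where rpl7l1 stood at −1.49 (−2.44 to −0.66) with 13 and 130 UMIs, under the minimum. Equal weight per cell gave 1 in erythroid-like cells, rpl7l1. In blood-like against chamber-like cells that setting took rplp2 to log2 −0.73, under 2-fold, while rpl7l1 and rps19bp1 stayed past it. Between ages in lymphatic-like cells the count was 0 within 5000 to 15000 UMIs and 0 with the main 48 hpf cluster alone, where rpl7l1 again had too few UMIs, and 2 within the minor cluster, rps18 and rps27l. The 48 hpf comparisons could not be run with RP genes kept in the clustering, which left 3 S-phase-like cells, nor erythroid-like cells within 5000 to 15000 UMIs, which left 6. No paired analysis was possible because each group is 1 library. Depth limits rpl7l1 in small groups, where 22 UMIs stood behind its lowest value.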
